A study of Arabidopsis thaliana with 4 samples.

Results

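Aquaporins are membrane channels of the major intrinsic protein family that let water and small neutral solutes cross lipid bilayers. The transcript levels of 35 Arabidopsis aquaporin genes, taken by locus code from the family list, were examined in callus of the plt1 plt2 double mutant and of the wild type. Of the 35, 28 had a row among the 23922 loci of the count table, and 25 of those had enough reads to be tested. The tested genes were 13 of 13 plasma membrane intrinsic proteins (PIPs), 4 of 10 tonoplast intrinsic proteins (TIPs), 5 of 9 NOD26-like intrinsic proteins (NIPs) and 3 of 3 small basic intrinsic proteins (SIPs).

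RNA-seq had been done on callus, a mass of dividing cells that hypocotyl pieces form on auxin-rich medium, with 2 libraries in each group. One group was labelled plt1 plt2, a double mutant in PLT1 and PLT2, which encode transcription factors of the root stem cell niche (no source used here gives the alleles), and the other was wild type Col-0. Seedlings of both were raised in darkness for 9 days, and pieces of about 1 cm then stood in constant light at 22 °C for 5 to 6 days (stage label 6 days) with 2% sucrose, 11 µM of the auxin 2,4-D and 0.2 µM of the cytokinin kinetin. RNA came from about 100 pooled calli. The labels do not tell whether the libraries of a genotype were grown as separate cultures, and the p-values cover only the spread between these libraries, which may be technical.

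The libraries labelled plt1 plt2 held 63209401 and 53907649 reads, and those of wild type 59049542 and 57254672 reads. Pairs within a genotype differed by more than sampling alone gives (chi-square over its degrees of freedom 6.74 in plt1 plt2 and 4.72 in wild type), though by less than pairs across genotypes (17.8 to 21.6). PLT1 had 122 and 128 CPM (reads scaled to a common library size) in plt1 plt2, against 171 and 166 CPM in wild type. PLT2 had 182 and 179 CPM in plt1 plt2, against 63.0 and 62.1 CPM in wild type. PLT2 reads thus ran against the label, counts per gene do not show which part of a gene was read, and every direction given here rests on the labels: "in plt1 plt2" means in the libraries labelled so. All 7 markers of callus identity, among them LBD16 and WOX5, were measured. They summed to 875 and 811 CPM in plt1 plt2 and 852 and 841.5 CPM in wild type, so the sums overlapped. By the edgeR test described below 4 of them rose and 1 fell, where 4.63% of all tested genes rose and 5.86% fell. The 4 rises were 1.14-fold to 1.40-fold, and the fall, of SCR, was 1.29-fold (edgeR adjusted p = 0.000871). Against a fold of 1.5 (glmTreat) 0 of the markers were called, where 154 of the 19325 tested genes were called lower and 44 higher.

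Plant aquaporins form a channel lined by a pair of short helices that each end in an Asn-Pro-Ala box. PIPs sit in the plasma membrane and TIPs in the vacuolar membrane, where they set how fast water enters and leaves the cell and its vacuole. NIPs carry metalloids such as boric acid and arsenite, and other small solutes, and SIPs reside in the endoplasmic reticulum. Growing plant cells enlarge by taking up water into the vacuole.

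The first pore box encodes Asn-Pro-Ala in all PIPs and TIPs of the list and in all NIPs but NIP5;1 and NIP7;1, and ends in another residue in each SIP. The coding bases of the first box are printed here in capitals with 18 bases on each side (5′ to 3′, coding strand, RefSeq TAIR10.1). The set holds the most abundant gene of each class, and 1 more NIP and SIP, to show where the box is shared between classes and where it is not.
PIP2;7: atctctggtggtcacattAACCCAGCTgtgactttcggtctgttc
TIP2;1: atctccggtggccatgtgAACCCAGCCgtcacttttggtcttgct
NIP1;2: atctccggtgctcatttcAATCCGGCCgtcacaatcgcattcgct
NIP5;1: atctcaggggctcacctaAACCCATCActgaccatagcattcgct
SIP1;1: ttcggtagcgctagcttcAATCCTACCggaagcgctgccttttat
SIP2;1: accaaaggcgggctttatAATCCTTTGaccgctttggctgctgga
The third codon of the box encodes alanine in the first 3 of these, serine in the boric acid channel on the next line, and threonine and leucine in the SIPs.

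A few plasma membrane channels made up most of the family. Levels of different genes are compared as RPKM, which is CPM divided by the length of all exons in kilobases (RefSeq TAIR10.1). The most abundant aquaporin was the water channel PIP2;7 (AT4G35100, RefSeq symbol PIP3, chromosome 4, 16708361 to 16710407, plus strand), at 387 and 397 RPKM in plt1 plt2 and 421 and 433 RPKM in wild type. By mean level it ranked 180 of the 19285 tested genes that have an exon length. Next came PIP1;2, a channel for water and carbon dioxide, at 168 and 167 RPKM in plt1 plt2 and 176 and 183 RPKM in wild type. The leading NIP came after these, at 117 and 101 RPKM in plt1 plt2 and 109 and 110 RPKM in wild type, which overlap. At the low end, 4 genes with a row reached at most 0.223 RPKM in any library, and these were 1 PIP, 1 TIP and 2 NIPs.

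**Figure D1:**
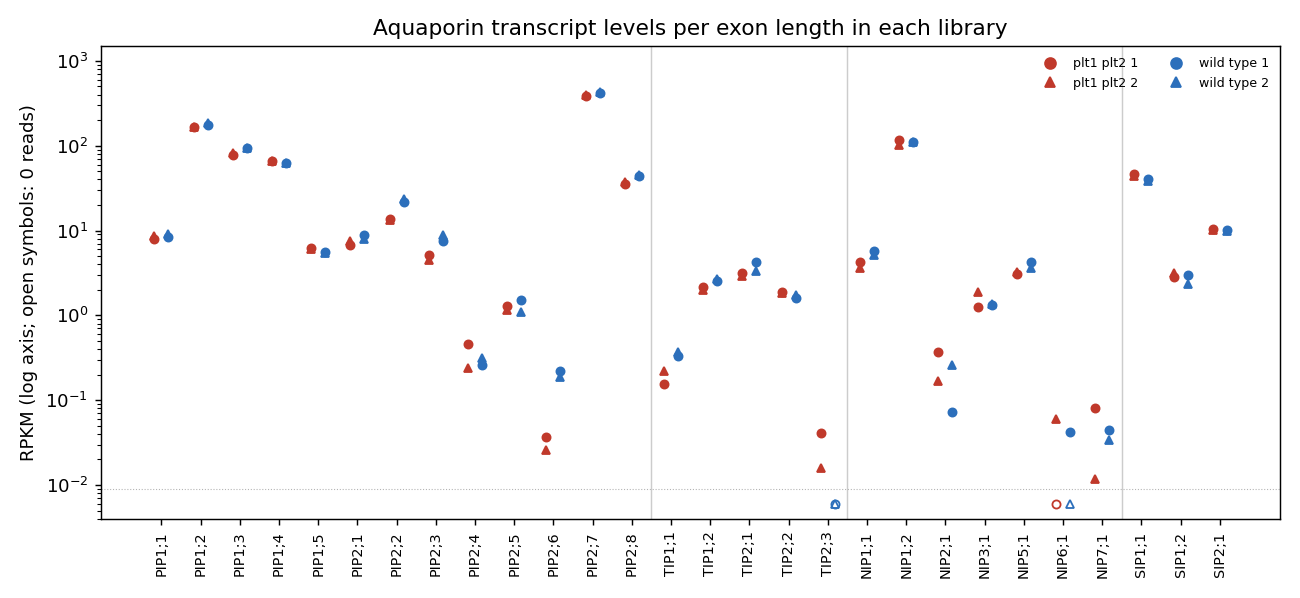
RPKM (log axis) of the 28 aquaporins with a row, grouped by class, with libraries labelled plt1 plt2 left of wild type libraries for each gene and open symbols for libraries with 0 reads. The leading PIP stands highest at 387 to 433 RPKM, every TIP lies at or below 4.20 RPKM, and the gap between the genotypes is narrow for most genes and wide for the least abundant PIP.

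Summed over the family, aquaporin transcripts came to 969 and 963 RPKM in plt1 plt2, against 1033 and 1053 RPKM in wild type, or 0.153% and 0.154% of all reads in plt1 plt2 and 0.161% and 0.164% in wild type. PIPs gave 775.5 and 789 RPKM in plt1 plt2, against 849 and 874 RPKM in wild type. TIPs gave 7.42 and 6.99 RPKM in plt1 plt2, against 8.68 and 8.13 RPKM in wild type. Both plt1 plt2 libraries lay below both wild type libraries in these classes, and the vacuolar class made up only 0.746% of the family in plt1 plt2 and 0.806% in wild type.

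NIPs summed to 126 and 110 RPKM in plt1 plt2 and 121 and 121 RPKM in wild type, so the genotypes overlapped. SIPs summed to 59.9 and 57.2 RPKM in plt1 plt2, against 54.3 and 50.6 RPKM in wild type, with both plt1 plt2 libraries above both wild type libraries. Most of the SIP total was SIP1;1, with 78.0% and 76.7% in plt1 plt2 and 75.6% and 76.0% in wild type. The other SIPs, SIP1;2 and SIP2;1, each overlapped between the genotypes. The ratio of the mean totals, plt1 plt2 over wild type, was 0.908 for PIPs, 0.857 for TIPs, 0.977 for NIPs and 1.12 for SIPs. These sums are descriptions of 2 libraries a genotype and were not tested. The log2 ratio of the NIP total was -0.03, and -0.14 without plt1 plt2 library 1, while without plt1 plt2 library 2 its sign was positive.

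Within the PIPs, the sums of both subgroups lay lower in plt1 plt2. The PIP1 subgroup, whose proteins are known to reach the plasma membrane best when paired with PIP2 proteins, summed to 325 and 328 RPKM in plt1 plt2, against 345 and 354 RPKM in wild type. The PIP2 subgroup summed to 450 and 461.5 RPKM in plt1 plt2, against 504.5 and 519.5 RPKM in wild type. Neither sum overlapped between the genotypes, where 54.7% of all tested genes did not, and neither sum was tested. Of the 5 PIP1 genes, both plt1 plt2 libraries lay below both wild type libraries in 2 and above them in 2. Of the 8 PIP2 genes, they lay below in 6 and above in 0. Of all tested genes, 27.7% lay below in this way and 27% above.

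**Figure D2:**
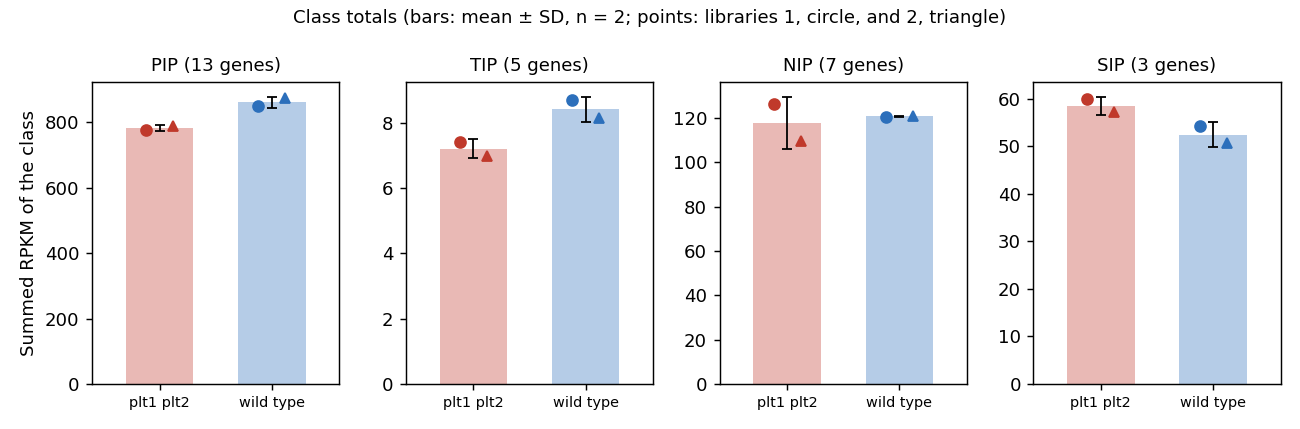
Summed RPKM of the members of each class (y axes from 0), with bars for the mean, error bars for the SD over 2 libraries and points for the libraries. The PIP and TIP totals lie lower in plt1 plt2, the SIP total lies higher, and the NIP totals overlap.

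Gene by gene, 7 of the 25 tested aquaporins differed between the genotypes, and 6 of these fell and 1 rose in plt1 plt2. A gene was called where the p-value of edgeR's quasi-likelihood fit, adjusted over all 19325 genes tested, was below 0.05. Across all these genes 10.5% were called, 5.86% lower and 4.63% higher, and of the aquaporins 28.0% were called, 24.0% lower and 4.00% higher. The median log2 fold change of the 25 aquaporins was -0.10 and that of all genes was 0.00, with 16 of the 25 values below 0. In 13 of the 25 both plt1 plt2 libraries were below both wild type libraries and in 4 both were above, where 27.7% and 27% of all genes did so, together 54.7%.

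By class, 5 of 13 PIPs fell and 0 rose, 1 of 5 NIPs fell and 0 rose, and 1 of 3 SIPs rose and 0 fell. None of the 4 TIPs was called by edgeR or by DESeq2, and 0 of the 4 had an unadjusted p below 0.05 with either. The median log2 fold changes were -0.12 for PIPs, -0.31 for TIPs, -0.01 for NIPs and 0.17 for SIPs. Differences between classes were not tested. Fits without a library leave its genotype without replicates, so the spread then comes from the pair of the other genotype alone. Calls gained, kept or lost in such fits are therefore not evidence on a gene by themselves, and for single genes only log2 fold changes are given from them. Against a fold of 1.5 (glmTreat) 0 aquaporins were called, with 3 at an unadjusted p below 0.05. Of all 19325 tested genes glmTreat called 154 lower and 44 higher, so the count of 0 is near the background.

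**Figure D3:**
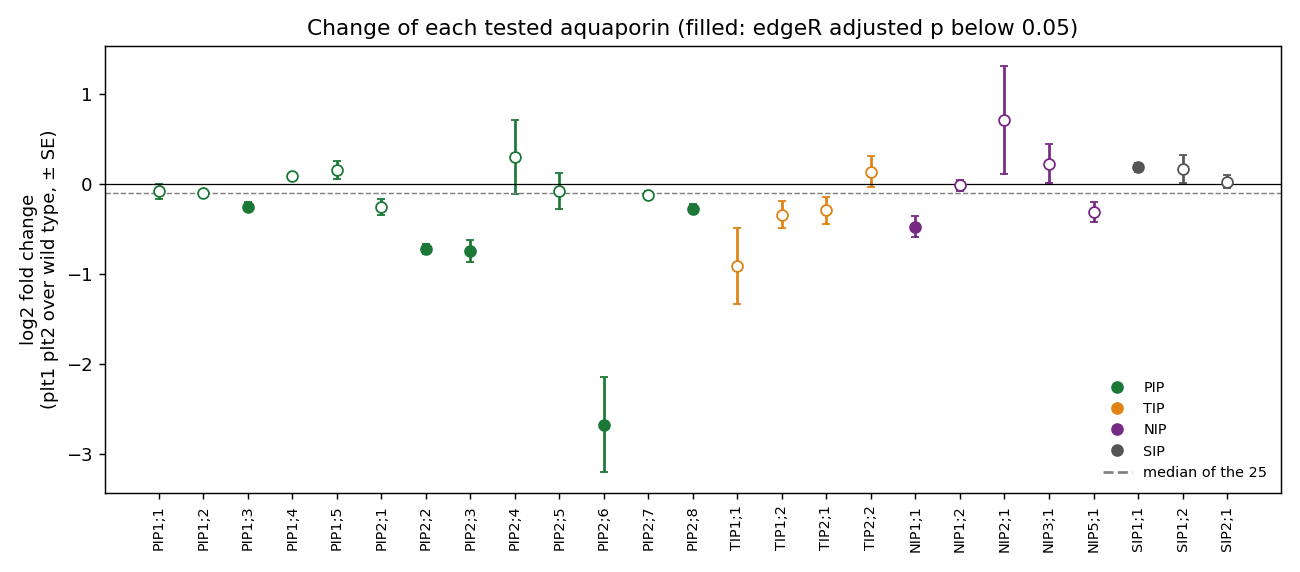
Log2 fold change (plt1 plt2 over wild type) with its SE for the 25 tested aquaporins, coloured by class, with filled points for genes that passed the test and a dashed line at the median of the 25, -0.10. The lowest point is a PIP at -2.67, a pair of PIPs lies near -0.7, and the single filled point above 0 is a SIP.

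PIP2;2 and PIP2;3 fell together, by about the same amount. They are neighbours on chromosome 2 (AT2G37170, RefSeq symbol PIP2B, 15613368 to 15615022, minus strand, and AT2G37180, RefSeq symbol RD28, 15617635 to 15619155, plus strand, with 4 exon blocks each). Both encode plasma membrane water channels, and RD28 was first described as a gene responsive to desiccation. Their coding sequences differ at 45 of 858 aligned bases and share a run of 242 identical bases, their translations are 96.8% identical, and 14.7% and 16.5% of the 50-base windows in their exons recur elsewhere in the genome. How reads that map to both were counted is not given in the sources, so the split of reads within the pair is uncertain. Within the aligned coding bases, only reads over differing bases tell the pair apart. The 150 coding bases with the most differences are shown with the 17 differing bases in capitals (5′ to 3′, coding strand, RefSeq TAIR10.1, from coding base 517 of the first and 388 of the second).
PIP2;2: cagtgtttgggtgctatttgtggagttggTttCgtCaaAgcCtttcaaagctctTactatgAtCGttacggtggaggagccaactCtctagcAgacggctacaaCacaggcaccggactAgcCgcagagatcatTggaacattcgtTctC
PIP2;3: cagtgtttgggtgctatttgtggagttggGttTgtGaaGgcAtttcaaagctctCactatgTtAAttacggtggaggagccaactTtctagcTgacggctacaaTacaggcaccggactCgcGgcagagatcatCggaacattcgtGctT

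PIP2;2 had 18.2 and 18.1 CPM in plt1 plt2, against 28.8 and 31.3 CPM in wild type. PIP2;3 had 6.35 and 5.53 CPM in plt1 plt2, against 9.23 and 10.7 CPM in wild type. For each gene both plt1 plt2 libraries lay below both wild type libraries. The first fell by 0.72 ± 0.06 (SE) on the log2 scale, or 1.65-fold (edgeR adjusted p = 4.72e-05), and the second by 0.74 ± 0.12, or 1.67-fold (adjusted p = 0.00222). With each library left out in turn, the log2 fold change ranged over -0.78 to -0.66 for the first and -0.85 to -0.63 for the second. The second took 25.8% and 23.4% of the reads of the pair in plt1 plt2, and 24.3% and 25.5% in wild type, so its part of the pair overlapped between the genotypes.

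PIP2;6 (AT2G39010, RefSeq symbol PIP2E, chromosome 2, 16291280 to 16294101, plus strand, 4 exon blocks) is a further plasma membrane aquaporin gene and had the largest fold change of the tested aquaporins, from few reads. It had 5 and 3 reads in plt1 plt2, against 28 and 23 reads in wild type, which is 0.0788 and 0.0549 CPM in plt1 plt2 and 0.479 and 0.405 CPM in wild type. The genotypes did not overlap. The log2 fold change was -2.67 ± 0.53 (edgeR adjusted p = 0.00959), and scaled for depth the pooled reads were 6.52-fold lower in plt1 plt2 (exact 95% interval 3.07 to 15.9, counting error only). The log2 fold change ranged over -2.96 to -2.46 with each library left out in turn.

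**Figure D4:**
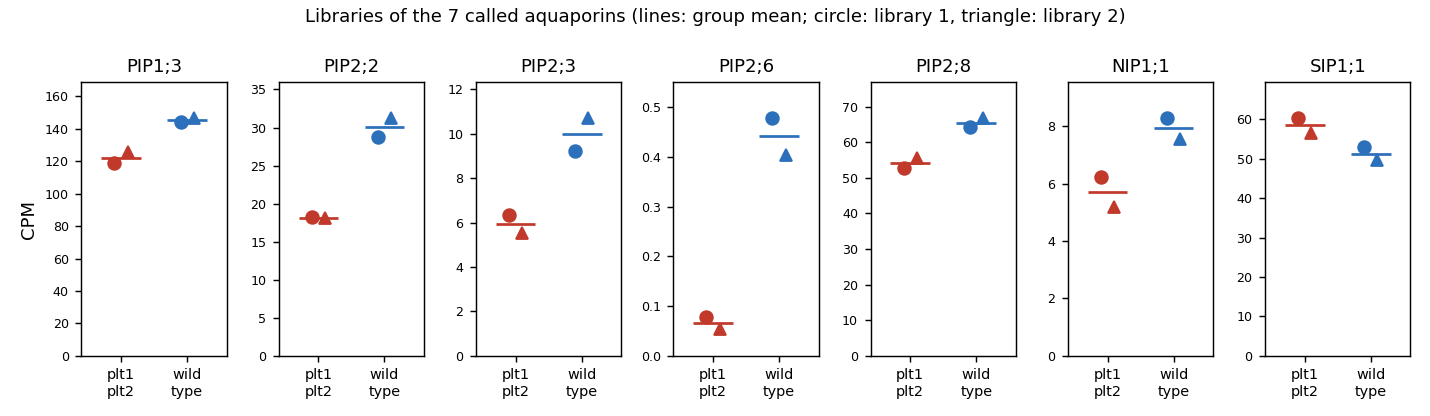
CPM of the 7 called aquaporins in each library (y axes from 0, one scale per gene), with lines at the group means. In the 5 PIPs and the NIP both libraries labelled plt1 plt2 lie below both wild type libraries, and in the SIP they lie above them.

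PIP2;8 (AT2G16850, chromosome 2, 7301334 to 7303509, plus strand, 4 exon blocks), a water channel gene, fell by less. It had 52.9 and 55.7 CPM in plt1 plt2, against 64.2 and 66.8 CPM in wild type, without overlap. The log2 fold change was -0.27 ± 0.05 (edgeR adjusted p = 0.00530), and it ranged over -0.31 to -0.24 with each library left out in turn. Its closest relative is the abundant PIP2;7, with a translation 92.4% identical, which had 620 and 636.5 CPM in plt1 plt2, against 675.5 and 694 CPM in wild type. These groups did not overlap either, but the gene was not called (-0.12 ± 0.04, edgeR adjusted p = 0.105). Its value ranged over -0.14 to -0.10 with each library left out in turn. Of the reads of both genes, the less abundant one took 7.86% and 8.04% in plt1 plt2, against 8.68% and 8.79% in wild type.

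PIP1;3 (AT1G01620, RefSeq symbol PIP1C, chromosome 1, 225665 to 227543, minus strand, 4 exon blocks) was the called member of the PIP1 subgroup. It had 119 and 125.5 CPM in plt1 plt2, against 144 and 147 CPM in wild type, without overlap. The log2 fold change was -0.25 ± 0.05 (edgeR adjusted p = 0.00567), and it ranged over -0.29 to -0.21 with each library left out in turn. Its relative PIP1;4, which can carry hydrogen peroxide and is 97.6% identical in translation, had 133 and 131 CPM in plt1 plt2, against 123.5 and 124 CPM in wild type. That gene was not called, although its groups did not overlap (0.09 ± 0.04, adjusted p = 0.225). The called gene took 47.2% and 49.0% of the reads of the pair in plt1 plt2, against 53.85% and 54.1% in wild type. No 50-base window of their exons recurs elsewhere in the genome, and whether the changes within this pair and the one before differ was not tested.

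The other members of these subgroups were not called. PIP1;2 had 268 and 266 CPM in plt1 plt2, against 281 and 292 CPM in wild type, without overlap (log2 fold change -0.10 ± 0.04, edgeR adjusted p = 0.189). PIP2;1, known from guard cells and lateral root emergence and 93.4% identical in translation to PIP2;2, had 10.6 and 11.7 CPM in plt1 plt2, against 13.85 and 12.6 CPM in wild type. Its groups did not overlap (-0.25 ± 0.09, edgeR adjusted p = 0.105), and the value ranged over -0.32 to -0.18 with each library left out in turn.

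Relatives of the called PIP1 gene at 95.5% and 95.1% identity in translation were PIP1;1 and PIP1;5. The first had 12.4 and 13.4 CPM in plt1 plt2 and 13.1 and 14.2 CPM in wild type, which overlap (log2 fold change -0.08 ± 0.08, edgeR adjusted p = 0.572). The second had 8.31 and 8.09 CPM in plt1 plt2, against 7.37 and 7.30 CPM in wild type, which do not (0.16 ± 0.10, adjusted p = 0.339). The last members of the class, PIP2;4 and PIP2;5, lay between 0.348 and 2.68 CPM over both genes and all libraries, and each overlapped between the genotypes. The order of the 13 PIPs by mean RPKM was the same in both genotypes except for one exchange of neighbours, at ranks 9 and 10. The leading gene held 49.9% and 50.3% of the PIP total in plt1 plt2, and 49.6% and 49.5% in wild type.

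The TIPs, which in many plant tissues are abundant, were scarce in this callus in both genotypes. TIP2;1 (AT3G16240, RefSeq symbol DELTA-TIP), a channel for water and ammonia, led the class with 3.78 and 3.50 CPM in plt1 plt2, against 4.99 and 3.92 CPM in wild type. The groups did not overlap, and the gene was not called (log2 fold change -0.29 ± 0.15, edgeR adjusted p = 0.283). The value was -0.11 without wild type library 1 and -0.45 without wild type library 2. It overlaps 2 genes on the other strand, and without a stated strand setting their reads cannot be told apart. TIP1;2, a vacuolar water channel gene, had 2.79 and 2.56 CPM in plt1 plt2, against 3.28 and 3.50 CPM in wild type, also without overlap (-0.34 ± 0.15, adjusted p = 0.204).

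The remaining TIPs had fewer reads still or changed little. TIP1;1 (RefSeq symbol GAMMA-TIP), a vacuolar channel known from elongating cells, had 12 and 15 reads in plt1 plt2, against 24 and 26 reads in wild type. The groups did not overlap (log2 fold change -0.91 ± 0.42, edgeR adjusted p = 0.216), and scaled for depth the pooled reads were 1.90-fold lower in plt1 plt2 (exact 95% interval 1.16 to 3.15, counting error only). TIP2;2 had 2.54 and 2.47 CPM in plt1 plt2, against 2.17 and 2.37 CPM in wild type (0.14 ± 0.17, adjusted p = 0.667). TIP2;3 had 3 and 1 reads in plt1 plt2 and 0 in both wild type libraries, where a count of 0 allows up to 0.0513 and 0.0528 CPM, and it was not tested. For the other 5 TIPs, which are AT4G01470 and AT3G47440 known from pollen, AT1G73190 and AT1G17810 known from seeds, and AT2G25810, the table had no row, and they are not analysed here.

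Among the NIPs, NIP1;2 held nearly all transcripts, with 92.8% and 91.8% of the class total in plt1 plt2 and 90.5% and 91.35% in wild type. Its level of 169 and 145 CPM in plt1 plt2 overlapped that of 157 and 159 CPM in wild type (log2 fold change -0.01 ± 0.06, edgeR adjusted p = 0.944). NIP1;1 (AT4G19030, RefSeq symbol NLM1, chromosome 4, 10421521 to 10423508, minus strand, 3 exon blocks), a channel that admits arsenite, is its closest relative, 80.6% identical in translation. NIP1;1 had 6.23 and 5.18 CPM in plt1 plt2, against 8.29 and 7.56 CPM in wild type, without overlap. It fell by 0.47 ± 0.12 on the log2 scale, or 1.39-fold (adjusted p = 0.0318). The log2 fold change ranged over -0.62 to -0.35 with each library left out in turn.

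NIP5;1 (AT4G10380), the boric acid channel of root uptake whose box with a serine codon is printed above, had 6.65 and 7.12 CPM in plt1 plt2, against 9.30 and 7.77 CPM in wild type. The groups did not overlap, and the gene was not called (log2 fold change -0.31 ± 0.11, edgeR adjusted p = 0.121). With each library left out in turn, the value ranged over -0.43 to -0.18. NIP3;1 had 1.83 and 2.75 CPM in plt1 plt2 and 1.92 and 1.97 CPM in wild type, which overlap. NIP2;1, known for lactic acid transport under low oxygen, had 33 and 13 reads in plt1 plt2 and 6 and 21 reads in wild type, which overlap as well. Of the exon windows of these last genes 9.21% and 10.4% recur elsewhere in the genome, and the second overlaps 2 genes on the other strand, so their counts are uncertain.

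The boric acid channel genes NIP6;1 and NIP7;1, known from shoot nodes and anthers, had at most 8 reads in any library and were not tested. For AT5G37810 and AT5G37820, a pair of NIPs known from pollen, the table had no row, and they are not analysed here.

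SIP1;1 (AT3G04090, RefSeq symbol SIP1A, chromosome 3, 1071984 to 1074244, minus strand, 3 exon blocks), a water channel of the endoplasmic reticulum, was the single aquaporin that rose. It had 60.4 and 56.65 CPM in plt1 plt2, against 53.0 and 49.7 CPM in wild type, without overlap. The log2 fold change was 0.19 ± 0.05, or 1.14-fold (edgeR adjusted p = 0.0474). DESeq2 did not call it (adjusted p = 0.0802), and the log2 fold change ranged over 0.14 to 0.24 with each library left out in turn. SIP2;1 had 13.3 and 13.0 CPM in plt1 plt2 and 13.2 and 12.6 CPM in wild type, and SIP1;2 had 3.66 and 4.10 CPM in plt1 plt2 and 3.88 and 3.01 CPM in wild type. Both overlapped between the genotypes (adjusted p = 0.857 and 0.579), and the first also overlaps 2 genes on the other strand.

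Genes that work beside aquaporins were read from the same fit. Of 23 tested vacuolar proton pump and exchanger genes, which energise solute uptake into the vacuole, 2 fell and 0 rose, where 5.86% of all tested genes fell, so the count is near the background, and the median log2 fold change was -0.05. VHA-E3, for a subunit of the vacuolar ATPase, had 11.5 and 12.5 CPM in plt1 plt2, against 19.5 and 20.9 CPM in wild type, without overlap (-0.76 ± 0.07, edgeR adjusted p = 0.000120). VHA-G1, for another subunit, had 37.9 and 37.1 CPM in plt1 plt2, against 41.9 and 42.6 CPM in wild type (-0.17 ± 0.05, adjusted p = 0.0497). That call was lost with library totals (adjusted p = 0.0828), with DESeq2 (0.160) and with a replicate block (0.0791).

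Of 10 plasma membrane proton ATPase genes, whose pumps energise solute uptake into the cell, 1 rose and 0 fell, near the 10.5% of all tested genes called in either direction. AHA3 had 61.8 and 78.3 CPM in plt1 plt2, against 55.1 and 51.3 CPM in wild type (log2 fold change 0.40 ± 0.09, edgeR adjusted p = 0.0198), and was not called with DESeq2 (0.176). Its log2 fold change was 0.22 without plt1 plt2 library 2, the higher one, and 0.56 without plt1 plt2 library 1. Of 10 genes for the trafficking, turnover and phosphorylation of aquaporins 1 rose and 0 fell, again near the 10.5% of all genes. SYP121, a syntaxin that delivers PIPs to the plasma membrane, had 39.05 and 36.6 CPM in plt1 plt2, against 33.4 and 32.15 CPM in wild type (0.21 ± 0.06, adjusted p = 0.0392). It too was not called with DESeq2 (adjusted p = 0.0904).

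Boron exporters move onward the boron that boric acid channels of the NIP class let in. Of 6 tested exporter genes 3 fell and 0 rose, where 5.86% of all genes fell, and the median log2 fold change was -0.24. BOR1, which loads boron into the xylem, had 41.0 and 42.8 CPM in plt1 plt2, against 61.0 and 58.75 CPM in wild type (-0.51 ± 0.05, edgeR adjusted p = 9.33e-05). BOR2 had 14.9 and 15.75 CPM in plt1 plt2, against 22.7 and 21.2 CPM in wild type (-0.52 ± 0.07, adjusted p = 0.000783). BOR4, for a boron efflux protein, had 1.435 and 1.355 CPM in plt1 plt2, against 2.80 and 2.36 CPM in wild type (-0.89 ± 0.20, adjusted p = 0.0163). None of the 3 overlapped between the genotypes, as 54.7% of all genes did not.

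**Figure D5:**
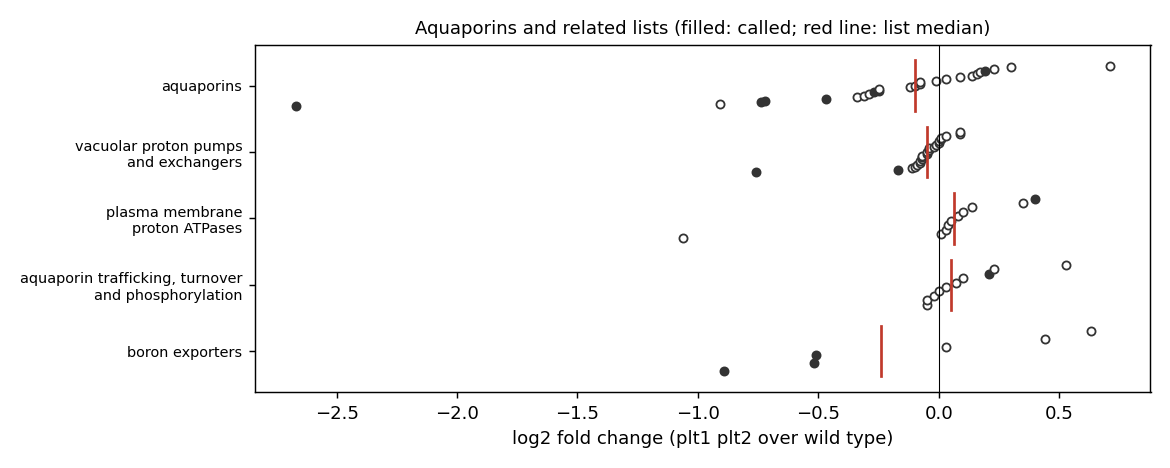
Log2 fold change (plt1 plt2 over wild type) of each tested gene of the aquaporin family and of the related lists, with filled points for genes that passed the test and red lines at list medians. Most genes of the proton pump lists lie near 0, while 3 of the 6 boron exporters are filled, between -0.89 and -0.51.

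Markers of other cell types moved in the same libraries, and their counts stand beside 5.86% lower and 4.63% higher over all tested genes. All 4 root cap markers fell, with a summed level of 26.5 and 37.5 CPM in plt1 plt2, against 62.4 and 57.6 CPM in wild type. Of 4 phloem markers 3 fell, and the list summed to 4.73 and 4.61 CPM in plt1 plt2, against 9.34 and 8.11 CPM in wild type. DESeq2 called 3 of the root cap and 2 of the phloem markers, all lower, where over all genes it called 957 lower and 709 higher. Of 4 tested epidermis and root hair markers 3 fell, the epidermis genes ATML1, PDF2 and PDF1, and 1 rose, the root hair gene RHD6. RHD6 had 13.9 and 13.75 CPM in plt1 plt2, against 5.97 and 4.78 CPM in wild type (log2 fold change 1.36 ± 0.11, edgeR adjusted p = 3.165e-05). That list summed to 864 and 802.5 CPM in plt1 plt2, against 1065 and 1000.1 CPM in wild type. Most of the sum was PDF1, at 702.5 and 655 CPM in plt1 plt2 and 880 and 816 CPM in wild type.

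Xylem markers summed to 15.55 and 14.1 CPM in plt1 plt2 and 16.35 and 18.7 CPM in wild type, and endodermis markers to 3.185 and 3.13 CPM in plt1 plt2 and 3.505 and 3.36 CPM in wild type. Of 4 tested genes in each of these lists edgeR and DESeq2 called 0, and 1 xylem and 0 endodermis markers had an unadjusted edgeR p below 0.05. The endodermis marker PER64 had 2 and 0 reads in plt1 plt2 and 1 and 1 reads in wild type. The root hair marker COBL9 had 5 and 3 reads in plt1 plt2 and 3 and 0 reads in wild type. Neither had enough reads to be tested. The part of these cell types in the aquaporin results was not tested, and in bulk callus fewer cells of a type and less RNA per cell cannot be told apart.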

How the data were processed

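The values were gene-level read counts as the authors deposited them, with 1 column per library and 0 columns of other samples. The submitters' processing notes name the build TAIR10, the aligner STAR 2.7.2b, the trimmer Trim Galore 0.5.0 and DESeq2. The counting tool, annotation and strand setting are not given in the sources used here. Locus codes were matched to RefSeq TAIR10.1, which gave coordinates, exon lengths and sequences for all 35 members.

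Genotype was the single factor in an edgeR 4.0.16 fit (R 4.3.3) with TMM scaling, filterByExpr, glmQLFit and glmQLFTest over 19325 genes, and p-values were adjusted by the Benjamini-Hochberg method across all of them (threshold 0.05). Log2 fold changes are plt1 plt2 over wild type, with the SE taken as the fold change divided by the square root of F. CPM used TMM-scaled totals. Exact 95% intervals and the floor of 3 counts cover counting error only. Identities come from Biopython 1.88 alignments over the shorter sequence. The fit was also run on simulated counts, with a pass mark set only for the largest planted changes and for false calls. That check does not bear on calls of smaller changes.

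Members, lists and tests were chosen with earlier results of these data known. Values in each library were given for called members, the leading 2 of each class and their relatives at 90% identity or more, and, of related lists, for up to 4 called genes. Alternatives were other scalings and count filters, DESeq2 1.42.0, glmTreat, a replicate block and leaving out each library.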

Additional observations from a re-analysis of the deposited data

How the results depend on the processing

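The aquaporin counts, 6 lower and 1 higher, were the same with RLE scaling, library totals, no filter on low counts and a replicate block. With a filter of a mean of 50 reads they were 5 and 1, since PIP2;6 was not tested. DESeq2 gave 6 lower and 0 higher (1 higher at an unadjusted p below 0.05), glmTreat against 1.5-fold 0 and 0, and leaving out each library 3 to 8 lower and 0 to 1 higher. Of the 49 tested genes of the related lists 5 were lower and 2 higher, where 5.86% and 4.63% of all tested genes were. The 5 lower genes included 3 boron exporters. For these lists DESeq2 gave 4 and 0 (3 higher at an unadjusted p below 0.05), and glmTreat 0 and 0 (2 lower at an unadjusted p below 0.05). All genes gave 1133 lower and 894 higher, with glmTreat 154 and 44, and without each library 606 to 1751 lower and 433 to 1275 higher. Fits without a library took the spread from the pair of the other genotype alone, so their counts are not comparable to the main ones. With library totals 53.8% of all calls were higher, against 44.1% with TMM. Log2 fold changes that changed sign were of genes not called. The value for NIP1;2 was 0.01 with library totals, and without each library values ranged over -0.13 to 0.09 for it, -0.26 to 0.67 for PIP2;4, -0.29 to 0.18 for PIP2;5, -0.09 to 0.50 for NIP3;1, -0.0026 to 0.37 for SIP1;2 and -0.0016 to 0.06 for SIP2;1. The leading PIP held 0.53 percentage points more of the PIP total in plt1 plt2 than in wild type, and 0.26 by summed CPM. The NIP log2 ratio ranged over -0.14 to 0.06 without each library. The causes were not tested. Libraries share only a number: deviations of same-numbered libraries had a correlation of -0.0896 across genes, and the replicate block gave 1081 lower and 828 higher calls over all genes. Depth limits the 7 aquaporins with a row that had fewer than 100 reads in every library.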
